A study of Mus musculus with 2 samples.

Results

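The 10 genes described here encode a glucose transporter and 9 enzymes of glycolysis and lactate formation: Slc2a1, Hk1, Hk2, Pfkp, Aldoa, Gapdh, Pgk1, Eno1, Pkm and Ldha. They were chosen by name as members of this pathway, and all 10 had a row of their own in the deposited table, Pkm under its older symbol Pkm2. The table held 26242 named genes with a RefSeq transcript, of which 11886 reached 1 FPKM in the knockout or the wild-type library, as all 10 genes did in both. FPKM are fragments divided by transcript length in kilobases and by library size.

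RNA came from the ear epidermis of C57BL/6 mice of 2 genotypes. One library was from mice with a K14 conditional knockout of Il9ra, the interleukin-9 receptor gene (Il9r in the table), and the other was from wild-type mice. K14 is keratin 14, a keratin of basal keratinocytes. Ears of both genotypes had been treated with 5% imiquimod, a Toll-like receptor 7 agonist that causes psoriasis-like inflammation, for 6 days. The sources used here give neither the age and number of the mice nor the allele and the deleted part of the gene. With 1 library per genotype no value can be set against a spread between animals, so no test was made.

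Glycolysis splits glucose into pyruvate and yields ATP without oxygen, and lactate dehydrogenase then turns pyruvate into lactate. Epidermal keratinocytes rely on this route, and they take up glucose largely through the transporter encoded by Slc2a1 (GLUT1), whose level is known to be raised in psoriatic epidermis. Hexokinase and phosphofructokinase catalyse the early steps that trap glucose and commit it to the pathway. Many genes of the pathway are textbook targets of the transcription factors HIF-1 and Myc.

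The libraries were estimated to hold about 31300000 fragments in the knockout and 24000000 in the wild type, from the steps between their lowest values. Il9r was at 0.011 FPKM in the knockout and 0.039 FPKM in the wild-type library, too low to check the genotype labels. The keratinocyte markers were high in both libraries, with Krt14 at 8083 FPKM in the knockout and 7421 FPKM in the wild type. The 4 Langerhans cell markers summed to 257 FPKM in the knockout and 367 FPKM in the wild type. Cd207 (langerin), the most specific of them, was at 19.5 FPKM in the knockout and 37.6 FPKM in the wild type, and H2-Aa at 48.4 FPKM in the knockout and 94.2 FPKM in the wild type. H2-Ab1 was lower in the knockout as well, while Epcam, which keratinocytes also express, was at 100.2 FPKM in the knockout and 98.8 FPKM in the wild type. The 4 hair follicle keratins summed to 6.00 FPKM in the knockout and 13.0 FPKM in the wild type. The part of these cells in the values of the 10 genes was not tested, and fewer cells of a type cannot be told apart from less RNA per cell. The 5 skeletal muscle markers summed to 6.11 FPKM in the knockout and 5.76 FPKM in the wild type, nearly all of it Mylpf, and Myh4 was listed at 0 in both. The fibroblast, endothelial, adipocyte, erythroid and neutrophil marker lists each summed to at most 8.17 FPKM in the knockout and 6.25 FPKM in the wild type. The neutrophil sum was nearly all Cxcr2. T cell markers summed to 19.9 FPKM in the knockout and 17.6 FPKM in the wild type, and melanocyte markers to 13.0 and 15.6 FPKM in that order. Sebaceous gland markers summed to 957 FPKM in the knockout and 948 FPKM in the wild type.

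Across the pathway the transcripts lay at nearly the same level in both genotypes, and Hk2 stood furthest apart. Hk2 was at 26.0 FPKM in the knockout and 34.7 FPKM in the wild-type library, 25.1% lower. The other 9 genes differed by at most 11.1%. On the log2 scale, as log2((knockout FPKM + 1)/(wild-type FPKM + 1)), the 10 differences ran from -0.40 for Hk2 to 0.03 for Gapdh, with a median of -0.04. The median over all 11886 genes was -0.02, and 5% and 95% of them lay below -0.34 and 0.31.

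All counts at 2-fold and 1.2-fold are of this difference, with 1 FPKM added, so a low gene can miss a fold that its plain FPKM ratio reaches. Of the 10 genes 0 were 2-fold apart, a size reached by 0.757% of all genes in either direction. At 1.2-fold, 1 of the 10 was lower and 0 were higher. Among all genes 15.5% were 1.2-fold apart in either direction and 8.85% were 1.2-fold lower. Of the 4247 genes that reached 20 FPKM in at least 1 library, as all 10 did, 12.6% were 1.2-fold apart. A count of 1 in 10 is near that background. Likewise 8 of the 10 were below 0, against 55.6% of all genes and 59.4% of those with at least 20 FPKM, and after rescaling to a median difference of 0 there were 6 of 10, with Eno1 and Pkm then above 0.

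**Figure D1:**
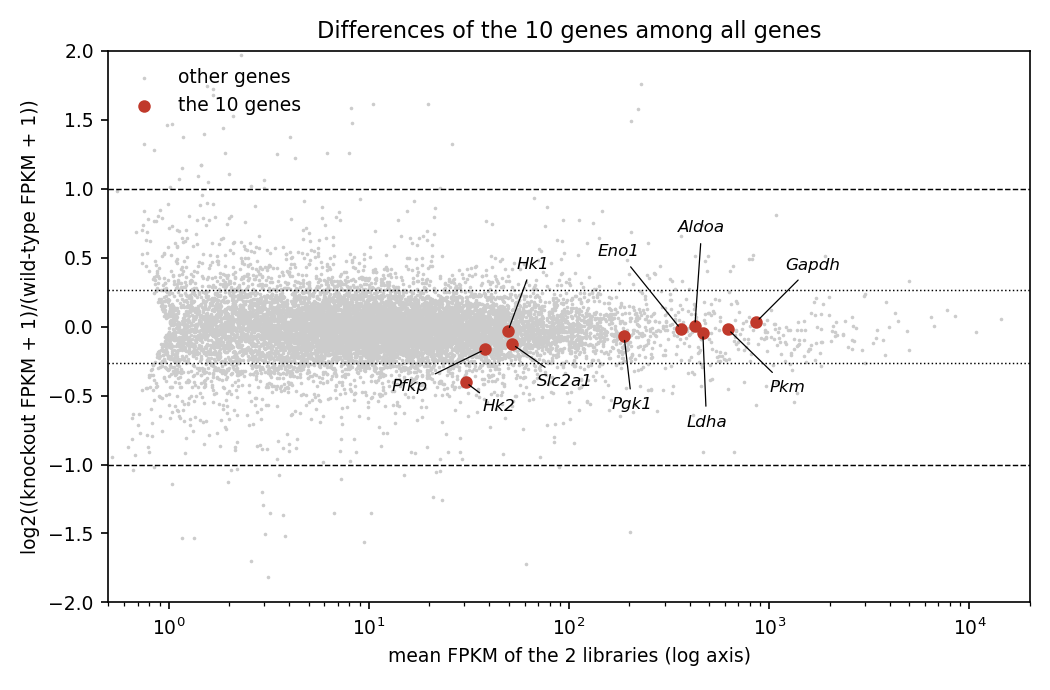
Log2 difference, knockout over wild type with 1 FPKM added to each, against the mean FPKM of the 2 libraries on a log axis, for the 11886 genes compared; 23 genes beyond the axis limits of -2 and 2 are not drawn. Red points are the 10 genes, dotted lines mark 1.2-fold and dashed lines 2-fold; only Hk2, at -0.40, lies outside the dotted lines.

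The levels of the 10 genes had the same order in both libraries: Gapdh, Pkm, Ldha, Aldoa, Eno1, Pgk1, Slc2a1, Hk1, Pfkp and Hk2, from highest to lowest. The highest was 33.4 times the lowest in the knockout and 24.4 times in the wild-type library. Slc2a1 and Hk1 were close neighbours, at 49.6 and 48.9 FPKM in the knockout and 54.3 and 50.1 FPKM in the wild type. Together the 10 genes made up 0.498% of the summed FPKM of all named genes in the knockout and 0.494% in the wild-type library.

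**Figure D2:**
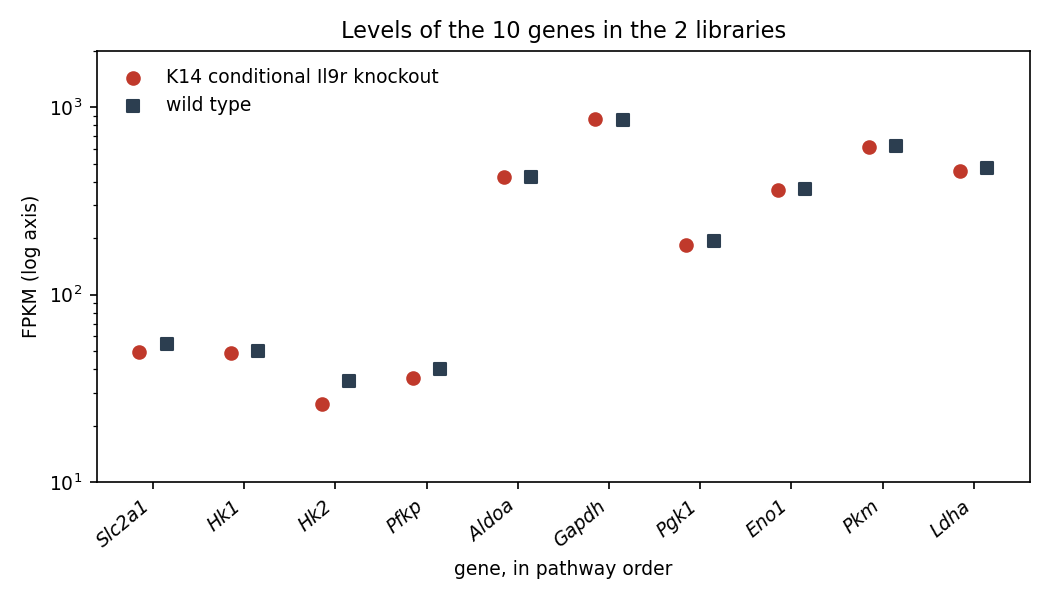
FPKM on a log axis of the 10 genes in pathway order, 1 point per library, with the K14 conditional Il9r knockout as red circles on the left and the wild type as dark squares on the right of each pair. The 4 genes of uptake and commitment lie between 26.0 and 54.3 FPKM, and the 6 genes of later steps between 184 and 869 FPKM.

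Slc2a1, Hk1, Hk2 and Pfkp, the genes of uptake and commitment, were the 4 least abundant, at 26.0 to 49.6 FPKM in the knockout and 34.7 to 54.3 FPKM in the wild type. All 4 were lower in the knockout, as were 59.4% of all genes with at least 20 FPKM, and Hk1 was at only -0.03. Their median log2 difference was -0.15. The 6 later enzymes had a median of -0.02. This grouping was made with the values known.

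Slc2a1 (ENSMUSG00000028645, plus strand of chromosome 4, 119108711 to 119137983 in GRCm38) was at 49.6 FPKM in the knockout and 54.3 FPKM in the wild-type library, 8.60% lower. Slc5a1, the sodium-coupled glucose carrier SGLT1, was nearly as abundant, at 46.1 FPKM in the knockout and 43.4 FPKM in the wild type. Slc2a5, a fructose transporter, was at 7.30 FPKM in the knockout and 6.04 FPKM in the wild type, a plain ratio of 1.21 and a log2 difference of 0.24 with 1 FPKM added. Of 14 genes looked up in the glucose transporter families, which include the fructose transporter Slc2a5, 6 passed 1 FPKM. With Slc2a1 and Slc2a5 among them, 3 were higher and 3 lower, with a median of 0.04 and 0 past 1.2-fold on the scale with 1 FPKM added.

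Hk2 (ENSMUSG00000000628, minus strand of chromosome 6, 82725025 to 82774454) encodes the inducible hexokinase 2 and Hk1 (ENSMUSG00000037012, minus strand of chromosome 10, 62268855 to 62379908) the more widely expressed hexokinase 1. Hk1 was at 48.9 FPKM in the knockout and 50.1 FPKM in the wild-type library, 2.38% lower. The ratio of Hk1 to Hk2 was 1.88 in the knockout and 1.44 in the wild type. Of the summed hexokinase FPKM, Hk2 gave 34.5% in the knockout and 40.8% in the wild type. Hk3 and Hkdc1 stayed below 1 FPKM in both. Hk2 rested on about 4500 fragments in the knockout and 4600 in the wild-type library by the estimated depths, for which counting alone gives an error of about 2.10% of the ratio. An absolute log2 difference at least as large as that of Hk2 was seen in 6.44% of all genes. In the authors' deposited table Hk2 had p = 0.08965 and q = 0.999289, from a test that compares these 2 libraries and not the genotypes.

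Pfkp, the platelet-type phosphofructokinase (ENSMUSG00000021196, minus strand of chromosome 13, 6579768 to 6648777), was at 35.8 FPKM in the knockout and 40.2 FPKM in the wild type, 11.1% lower. It was the main isozyme of its step, with 63.5% of the summed FPKM in the knockout and 64.6% in the wild type. The liver-type gene Pfkl was at 13.5 FPKM in the knockout and 14.1 FPKM in the wild type. The muscle-type gene Pfkm was at 7.08 FPKM in the knockout and 7.99 FPKM in the wild type. All 3 were lower in the knockout, by less than 1.2-fold, and the share of Pfkl was 23.9% in the knockout and 22.6% in the wild type.

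**Figure D3:**
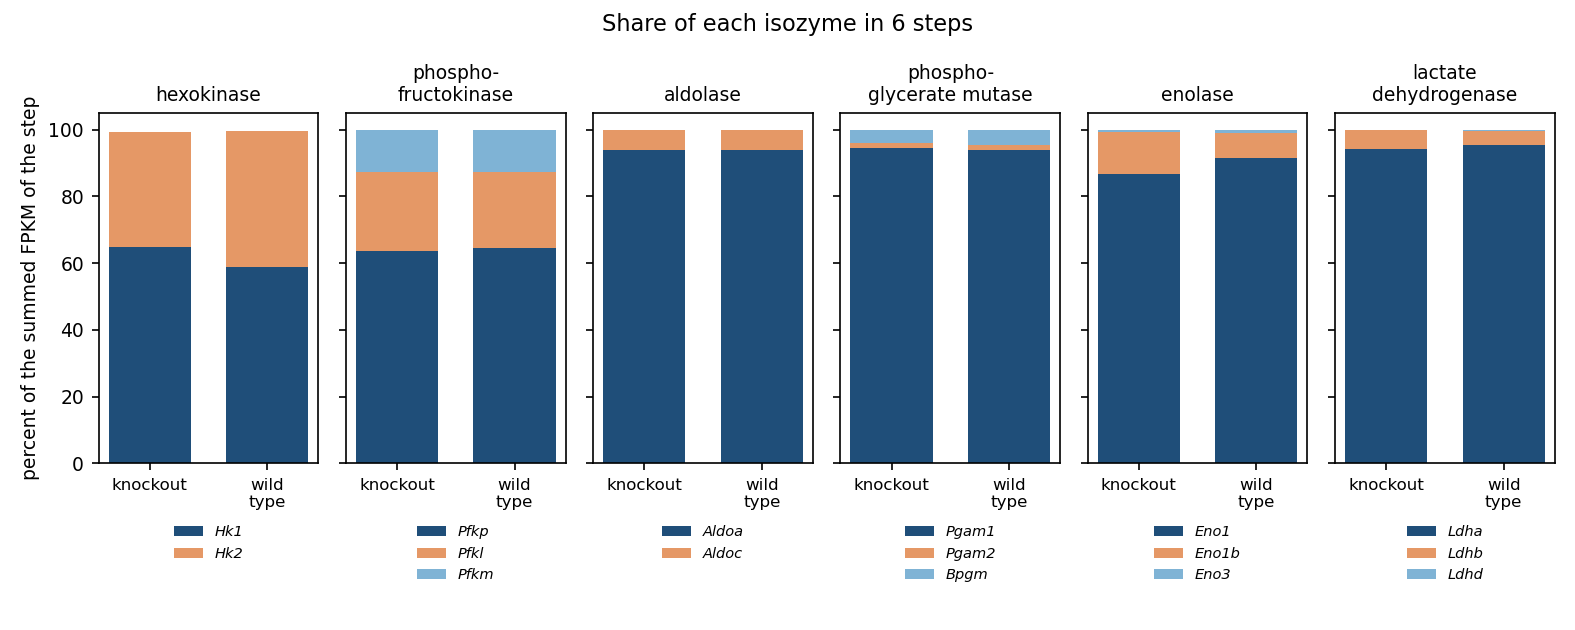
Percent of the summed FPKM of an enzyme step that each isozyme with at least 1 FPKM gave, in the knockout (left bar of each pair) and the wild type (right bar). Hk2 took 34.5% of hexokinase in the knockout and 40.8% in the wild type, and the enolase retrogene Eno1b took 12.5% of enolase in the knockout and 7.66% in the wild type.

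The later steps begin with Aldoa, aldolase A (ENSMUSG00000030695, minus strand of chromosome 7, 126795234 to 126800751), which was at 426 FPKM in the knockout and 424 FPKM in the wild type. Aldoc, a further aldolase, was at 27.3 FPKM in the knockout and 27.4 FPKM in the wild type. Of the 11 enzyme steps aldolase had the smallest difference, at 453 FPKM in the knockout and 452 FPKM in the wild type.

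Gapdh (ENSMUSG00000057666, minus strand of chromosome 6, 125161715 to 125166467), which oxidises glyceraldehyde 3-phosphate and is a common reference gene, was at 869 FPKM in the knockout and 850 FPKM in the wild type, 2.32% higher. It ranked 116th in the knockout and 118th in the wild type among all named genes. Pgk1, phosphoglycerate kinase 1 (ENSMUSG00000062070, plus strand of chromosome X, 106187100 to 106203699), forms the first ATP of the pathway. It was at 184 FPKM in the knockout and 193 FPKM in the wild type, 4.80% lower.

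Gpi1, Tpi1 and Pgam1 fill the steps between the 10 genes. Gpi1, glucose phosphate isomerase, was at 109 FPKM in the knockout and 108 FPKM in the wild type. Tpi1, triose phosphate isomerase, was at 222 FPKM in the knockout and 215 FPKM in the wild type. Pgam1, phosphoglycerate mutase 1, was at 185 FPKM in the knockout and 205 FPKM in the wild type, a log2 difference of -0.15. Bpgm, which makes 2,3-bisphosphoglycerate, was at 7.87 FPKM in the knockout and 9.83 FPKM in the wild type and was past 1.2-fold. Summed by step over 11 enzyme steps, log2 differences ran from -0.17 for hexokinase to 0.06 for enolase, with 6 of 11 below 0.

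Pkm, pyruvate kinase M (ENSMUSG00000032294, plus strand of chromosome 9, 59656368 to 59679375), was at 616 FPKM in the knockout and 624 FPKM in the wild type. Its row merges 2 RefSeq transcripts, so the splice forms M1 and M2 cannot be told apart, and Pklr, the liver and red cell gene, was listed at 0 in both. Ldha, lactate dehydrogenase A (ENSMUSG00000063229, plus strand of chromosome 7, 46841475 to 46855627), was at 459 FPKM in the knockout and 473 FPKM in the wild type, 3.06% lower. Ldhb, which encodes the heart-type subunit, went the other way, at 27.4 FPKM in the knockout and 22.0 FPKM in the wild type, a log2 difference of 0.30. Ldhb gave 5.63% of the lactate dehydrogenase FPKM in the knockout and 4.44% in the wild type. Ldhd, which encodes the D-lactate dehydrogenase, was at 1.18 FPKM in the knockout and 1.31 FPKM in the wild type.

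Eno1, enolase 1 (ENSMUSG00000063524, plus strand of chromosome 4, 150236721 to 150248879), was at 359 FPKM in the knockout and 364 FPKM in the wild type. Its retrotransposed copy Eno1b, named Gm5506 in the table, was at 51.8 FPKM in the knockout and 30.5 FPKM in the wild type, 1.70 times as high, with a log2 difference of 0.74. The longest transcripts of both genes in GENCODE M21 align over 1652 bases with 99.5% identity, 9 mismatches and a longest identical run of 751 bases. Of all windows of 100 bases in that alignment 67.3% are identical, so a read of that length from most of the alignment matches both genes and the value of each is uncertain. Summed with the copy, enolase 1 was at 411 FPKM in the knockout and 395 FPKM in the wild type, and its log2 difference was 0.06, against -0.02 for the Eno1 row alone. Eno3, the muscle enolase, was at 2.38 FPKM in the knockout and 2.80 FPKM in the wild type. The 120 bases of the Eno1 coding sequence that hold the most differences from Eno1b are shown (bases 697 to 816 of 1305, GENCODE M21 transcript, GRCm38). Capitals mark the 4 bases where Eno1b differs, out of 8 in the whole coding sequence. This stretch was picked for its differences, so it is not typical of the likeness.
Eno1: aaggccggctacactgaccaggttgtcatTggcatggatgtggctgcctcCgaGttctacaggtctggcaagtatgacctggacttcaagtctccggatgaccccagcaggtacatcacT

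The Gapdh copies were far smaller: 9 pseudogene rows together held 7.06 FPKM in the knockout and 8.50 FPKM in the wild type, which is 0.806% of the sum with Gapdh in the knockout and 0.991% in the wild type. The largest, Gm12070, is 99.9% identical to Gapdh over 1002 bases and was at 5.76 FPKM in the knockout and 6.81 FPKM in the wild type. With all 9 added, the log2 difference of Gapdh was 0.03, as without them. The copies of Aldoa and Ldha were listed at 0 in both libraries.

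The promoters of the 10 genes were read for the core letters of the hypoxia response element, ACGTG or GCGTG on either strand, in the 250 bases before each RefSeq start (GRCm38.p6). ACGTG was present in 7 of 17 windows, belonging to 6 of the 10 genes (Slc2a1, Hk2, Aldoa, Pgk1, Pkm and Ldha). It was present in 16.6% of all 32851 windows and in 21.8% of those of genes with at least 1 FPKM. These shares are of windows, and no share by gene was computed. Genes with at least 1 FPKM were matched to windows by exact name. Those under an older symbol or in a merged row dropped out, except Pkm. The overlapping windows of Aldoa hold the same match. GCGTG was present in 8 of 17 windows, against 28.2% of all and 45.3% of those of genes with at least 1 FPKM. CACGTG, the E-box bound by Myc, which contains ACGTG on both strands, was present in 1 of 17 windows, a window of Ldha. The share was 6.02% of all windows and 8.32% of those of genes with at least 1 FPKM. Some windows of 1 gene overlap, and a match is a description of letters, not a bound site. Of the 6 genes with ACGTG, the stretch around the match nearest the start is given for those with a single window, Slc2a1, Hk2 and Pgk1, and for Ldha, which has CACGTG. Pfkp and Gapdh also have a single window but hold GCGTG alone and are not shown. Capitals mark matches to ACGTG or GCGTG on either strand.
Slc2a1, chr4:119108682-119108740, plus strand: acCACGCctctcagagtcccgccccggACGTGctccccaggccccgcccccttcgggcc
Hk2, chr6:82774475-82774533, minus strand: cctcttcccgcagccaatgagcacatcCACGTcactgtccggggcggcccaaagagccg
Pgk1, chrX:106186942-106187000, plus strand: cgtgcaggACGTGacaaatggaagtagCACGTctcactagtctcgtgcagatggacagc
Ldha, chr7:46845743-46845801, plus strand: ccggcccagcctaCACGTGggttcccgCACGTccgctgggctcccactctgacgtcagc

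The log2 differences of these 4 genes were unequal. Hk2 was at -0.40, while Slc2a1 was at -0.13, Pgk1 at -0.07 and Ldha at -0.04. Aldoa and Pkm, which also have ACGTG but are not shown, were at 0.004 and -0.02.

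Genes of the HIF-1 pathway, without those of glycolysis, had a median log2 difference of 0.02 over the 19 of 20 that passed 1 FPKM, with 8 lower and 11 higher. At 1.2-fold, 2 were lower and 1 was higher. For this list and those below, the share of all genes 1.2-fold apart in either direction was 15.5%, and 8.85% were 1.2-fold lower. Ndrg1, a hypoxia- and differentiation-associated gene, was at 60.0 FPKM in the knockout and 85.9 FPKM in the wild type, and Adm, the vasodilator peptide adrenomedullin, at 33.7 FPKM in the knockout and 47.7 FPKM in the wild type. Ankrd37 was at 10.2 FPKM in the knockout and 7.50 FPKM in the wild type. Higd1a was at 72.8 FPKM in the knockout and 80.5 FPKM in the wild type, and Ddit4 at 64.6 FPKM in the knockout and 66.8 FPKM in the wild type.

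The 12 genes of the Myc network pool Myc and its partners with antagonists and glucose-responsive genes, so their median gives no single direction. It was -0.09, with 8 lower, and at 1.2-fold 2 were lower and 1 was higher. Both that were lower, Txnip and Arrdc4, are arrestin-like genes induced by glucose through the MondoA and ChREBP factors, and Txnip is a known brake on glucose uptake. Txnip was at 39.4 FPKM in the knockout and 48.9 FPKM in the wild type. Arrdc4 was at 34.6 FPKM in the knockout and 44.8 FPKM in the wild type. Myc itself was at 123 FPKM in the knockout and 103 FPKM in the wild type, and Mycl at 30.1 FPKM in the knockout and 24.3 FPKM in the wild type.

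The mTORC1 and AMPK list pools activators of mTORC1 with inhibitors, so its median gives no single direction. Of its 14 genes 9 were lower, with a median of -0.03 and 1 past 1.2-fold. That gene was Rheb, the GTPase that activates mTORC1, at 66.7 FPKM in the knockout and 84.2 FPKM in the wild type. Mtor, its kinase, was at 6.00 FPKM in the knockout and 7.23 FPKM in the wild type. Akt1, a kinase that promotes glucose uptake, was at 71.8 FPKM in the knockout and 76.0 FPKM in the wild type. The AMPK subunit genes Prkaa2 and Prkag1 went the other way. Prkaa2 was at 1.62 FPKM in the knockout and 1.21 FPKM in the wild type, a log2 difference of 0.25. Prkag1 was at 49.8 FPKM in the knockout and 49.0 FPKM in the wild type.

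The 5 enzymes that set the level of fructose 2,6-bisphosphate, an activator of phosphofructokinase, had a median of -0.04 and 0 past 1.2-fold. Pfkfb2 was at 12.4 FPKM in the knockout and 13.3 FPKM in the wild type. Carriers of lactate and pyruvate had a median of -0.05 over 5 genes, also with 0 past 1.2-fold. Slc16a1, the monocarboxylate transporter MCT1, was at 36.8 FPKM in the knockout and 39.8 FPKM in the wild type, and Bsg, its chaperone basigin, at 198 FPKM in the knockout and 184 FPKM in the wild type.

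The pyruvate dehydrogenase complex, its kinases and phosphatases had a median of -0.05 over 11 genes, with 6 lower. Pdk4, a kinase that inhibits the complex, was the 1 gene past 1.2-fold, at 5.57 FPKM in the knockout and 8.03 FPKM in the wild type. Pdhb, a subunit of the complex, was at 80.2 FPKM in the knockout and 80.1 FPKM in the wild type. Pentose phosphate genes had a median of 0.03 over 7 genes, 5 of them higher and 0 past 1.2-fold. Pgd was at 76.0 FPKM in the knockout and 68.7 FPKM in the wild type, and Tkt, transketolase, at 98.3 FPKM in the knockout and 105 FPKM in the wild type in a row merged with a microRNA. Glycogen genes had a median of -0.05 over 9 genes. Gluconeogenesis genes had a median of -0.01 over 4 genes, of which Fbp2 was past 1.2-fold, at 1.05 FPKM in the knockout and 0.550 FPKM in the wild type. Fbp2 lies at the filter limit and passed it through its higher value in the knockout alone. Over all 103 looked-up genes of these lists that passed and are not among the 10, 7 were 1.2-fold lower, 5 were 1.2-fold higher and 0 were 2-fold apart, with a median of -0.02. Among all genes 15.5% were 1.2-fold apart in either direction and 0.757% were 2-fold apart, so these counts do not exceed the background.

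**Figure D4:**
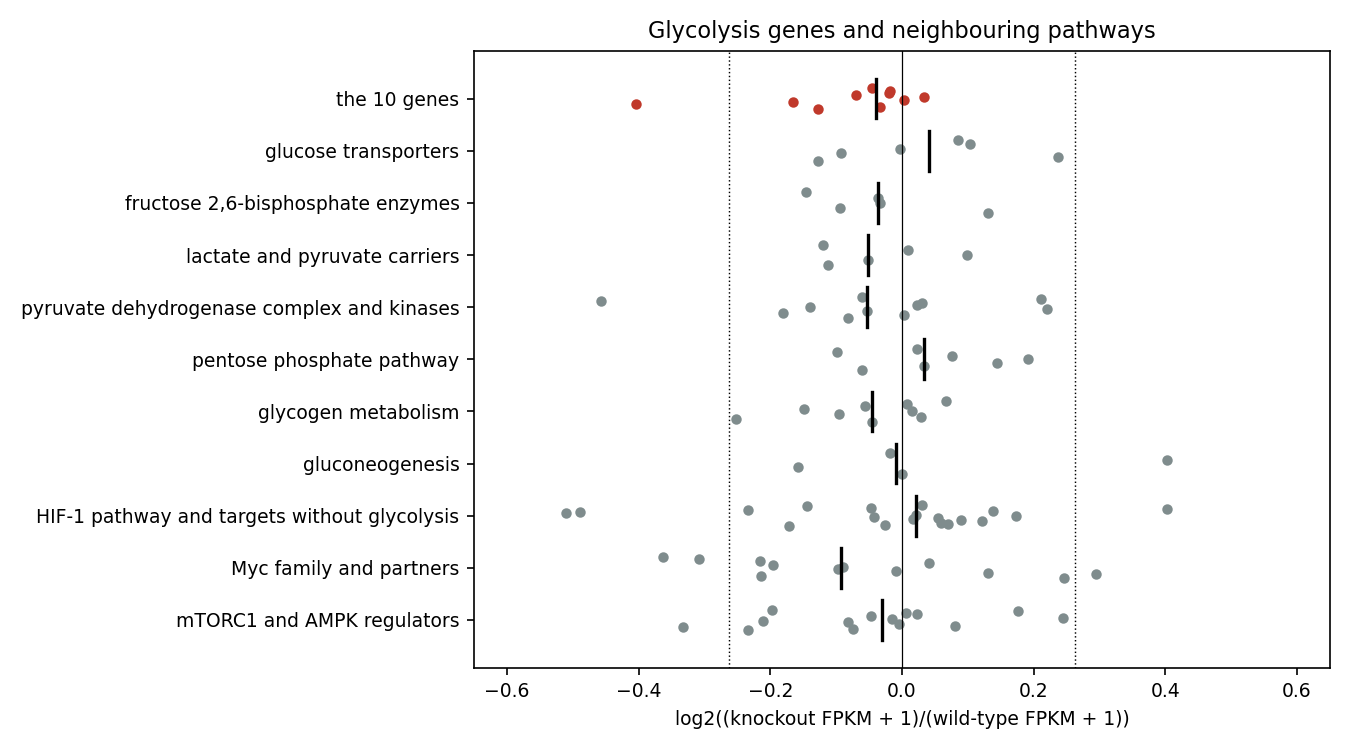
Log2 difference, knockout over wild type with 1 FPKM added to each, for the 10 genes (red) and the genes of 10 neighbouring lists that reached 1 FPKM in the knockout or the wild type (grey), 1 point per gene with the median as a black bar and 1.2-fold as dotted lines. Slc2a1 stands in both the top line and that of glucose transporters; the medians lie between -0.09 for the Myc network and 0.04 for glucose transporters.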

How the data were processed

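RNA-seq values of 2 libraries were used, 1 per genotype, grouped by the genotype labels. Per the labels' protocols, epidermal layers were isolated from ears with dispase II, RNA was extracted with Trizol, and TruSeq mRNA libraries were made. TopHat2 2.0.13 and Cufflinks 2.2.1 with mm10 are named per the submitters' processing notes; no source used here gives the options, annotation release or use of strand. Per the file headers, the authors deposited FPKM for each locus, together with the authors' log2 fold change, test statistic (a score), p-value and q-value, which compare the 2 libraries and were not recomputed. A further 3 tables contain no measurement.

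Of 29246 rows, 26264 had a gene name and a RefSeq transcript; rows of 1 name were summed. Genes that reached 1 FPKM in the knockout or the wild type were compared as log2((knockout FPKM + 1)/(wild-type FPKM + 1)), which understates differences of low genes. Percentages and ratios are of FPKM. With 1 library per genotype no test was possible. The members and lists were chosen with earlier results of these data known. The genes named are all members, their isozymes above 1 FPKM, and in each other list some of the 3 most abundant and 3 most different genes; Il9r, genes named as listed at 0 or below 1 FPKM, and gene copies were added after their values were seen. Depth was estimated from 926 and 880 low genes of 3 to 12 kb with a single transcript, as the lowest step of FPKM times length in the knockout and wild-type libraries; the next step lay at 2.00 and 2.03 times it. Fragments per gene are approximate. The counting of genes at 2-fold and the depth estimate were checked on simulated data. Positions are from GENCODE M21 (GRCm38, the assembly of mm10), promoters from RefSeq (GRCm38.p6). Python 3.11.15, numpy 2.4.6, pandas 2.3.3, matplotlib 3.10.9 and blastn 2.17.0+ were used.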

Additional observations from a re-analysis of the deposited data

How the results depend on the processing

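No paired analysis was possible because each genotype has 1 library and no test was made. Values were called unchanged when they moved by under 0.1 on the log2 scale. The median of the 10 genes was unchanged in this sense, but at -0.04 it is itself smaller than that margin. It was -0.02 after rescaling to a median difference of 0 and after rescaling on the upper quartile. The count past 2-fold stayed at 0 and the count past 1.2-fold at 1 under the other pseudocounts, filters and scalings. All 10 genes pass each filter, and 0 of them were past 1.5-fold either. Each gene kept its sign except Pkm and Eno1, whose ranges were -0.02 to 0.01 and -0.02 to 0.06, and Hk2 ran from -0.42 to -0.36. Without Hk2 the median was -0.03, and with Eno1 summed with its copy -0.04; both were tried after the data were seen. Of all genes, 49 higher and 41 lower at 2-fold turned into 100 higher and 103 lower when 0.1 FPKM was added in place of 1, 16 higher and 16 lower when 5 FPKM was added, and 156 higher and 171 lower at 1.5-fold; a filter of 5 FPKM left 24 higher and 28 lower. Counting the assembled rows of Pgam2 lowered the Pgam1 share to 92.0% in the knockout and 91.3% in the wild type. Without replicates, a difference between animals cannot be told apart from a difference between genotypes.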
